A study of Mus musculus with 6 samples.

Results

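The genes described here are 35 genes of fatty acid synthesis, desaturation and esterification in IL-4-treated bone marrow-derived macrophages (BMDMs), compared between cells with and without a floxed *Acly* allele deleted in the myeloid lineage. Members were chosen by symbol and placed in 6 groups by the step they serve: synthesis of the saturated chain (5 genes), transcriptional regulators (3), elongation (10), desaturation (5), activation to acyl-CoA (4) and building of glycerolipids (8). All 35 had a row in the deposited table of read counts, which paired with 24445 genes. Of the members, 31 were among the 12023 genes that passed a filter on low counts and entered the test. *Acacb*, *Mlxipl*, *Elovl3* and *Elovl4* did not pass it, and their counts are given as values.

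RNA-sequencing was performed on 6 libraries. The 3 Ctrl libraries came from Acly fl/fl littermate controls, which carry loxP sites around exon 9 of *Acly*, and the 3 AclyM-KO libraries from mice that also carry Lyz2-Cre, a Cre recombinase driven by a promoter active in myeloid cells, on a C57Bl/6J background. The cells of both groups came from female mice, were grown from bone marrow for 7 days and then received IL-4, a cytokine of type 2 immunity, at 100 U/mL for 24 h, so no untreated cells enter the comparison. Ages were not given in the sources used here, and since only AclyM-KO cells carry Cre, its presence and the deletion cannot be told apart. The study's text calls the libraries biological replicates in one place and technical replicates from pooled mice in another. The p-values below therefore measure the spread between these libraries, which may be technical.

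Library totals on the rows used ranged from 12151975 to 15587283 counts, and the 10 most abundant genes took 11.7% to 12.4% of them. Macrophage markers were abundant in every library, with a summed level of 7247 to 7561 CPM (read counts scaled to library size) in Ctrl and 6946 to 7310 CPM in AclyM-KO. The 6 markers did not move together: *Adgre1* was called higher (log2 fold change 0.33), *Mertk* (-0.73), *Itgam* (-0.28) and *Csf1r* (-0.20) were called lower, and *Cd68* and *Fcgr1* were not called. Of 7 adipocyte markers, the 6 genes *Lep*, *Plin1*, *Cidec*, *Cfd*, *Retn* and *Car3* were at 0 in all 6 libraries, and *Adipoq* made up the whole list, at 21.3 ± 4.17 CPM in Ctrl and 17.5 ± 0.623 CPM in AclyM-KO (mean ± SD, n = 3). Of 8 neutrophil markers, 4 were tested, and their list summed to 16.5 to 18.8 CPM in Ctrl and 24.2 to 25.9 CPM in AclyM-KO, with *S100a8* and *S100a9* called higher. The part of the macrophage and neutrophil markers in the results below was not tested. In such bulk samples, fewer cells of a type and less RNA per cell cannot be told apart.

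Fatty acids are built from acetyl-CoA in the cytosol. Acly makes that acetyl-CoA from citrate, acetyl-CoA carboxylase turns it into malonyl-CoA, and fatty acid synthase joins the units into a saturated chain. Enzymes of the endoplasmic reticulum then lengthen the chain, insert double bonds, attach coenzyme A and esterify the product into phospholipids and triglycerides, and the transcription factor SREBP1, encoded by *Srebf1*, is the best known activator of these genes. The study describes enhanced oxidation of fatty acids as a trait of IL-4-treated macrophages. It adds that experiments in macrophages lacking the transferases CPT1 or CPT2 found this oxidation largely dispensable for their IL-4 responses.

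*Acly* itself was measured first. Ctrl replicates 1 to 3 held 4917, 3925 and 4606 reads of it, and AclyM-KO replicates 1 to 3 held 2140, 2078 and 1978. All AclyM-KO libraries were below all Ctrl libraries, at 41.4% of the Ctrl level (334 ± 14.4 CPM in Ctrl and 138 ± 6.63 CPM in AclyM-KO, mean ± SD, n = 3). *Acly* fell by 1.27 on the log2 scale with an SE of 0.05 (adjusted p = 5.22e-10, edgeR quasi-likelihood test with Benjamini-Hochberg adjustment). The loxP sites remove 1 exon, so reads from the rest of the transcript are still counted and the value is no measure of the share of cells with the deletion.

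Across the pathway, more members rose than fell. The members were chosen with earlier results of these data known, so their counts beside those of all genes are descriptions. With an adjusted p under 0.05 over all genes tested, 14 of the 31 tested members were higher in AclyM-KO and 1 was lower. Among all 12023 genes, 12.4% were called higher and 12.6% lower, 24.9% in all. *Fasn*, *Elovl6*, *Fads2* and *Dgat2* also passed a limit of 0.58 on the log2 fold change, which 2.98% of all genes passed upwards and 2.57% downwards (5.55% in all), and no member passed it downwards. The log2 fold change was above 0 for 26 of the 31 members, against 50.3% of all genes. The median over the members was 0.22, with a range from -0.25 to 1.27, while the median over all genes was 0.00. In 18 members every AclyM-KO library lay above every Ctrl library and in 1 every AclyM-KO library lay below, where 20.5% and 19.8% of all genes did so. An exact two-sided permutation test of 3 against 3 libraries cannot give a p below 0.1, so single genes rest on the edgeR fit.

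**Figure D1:**
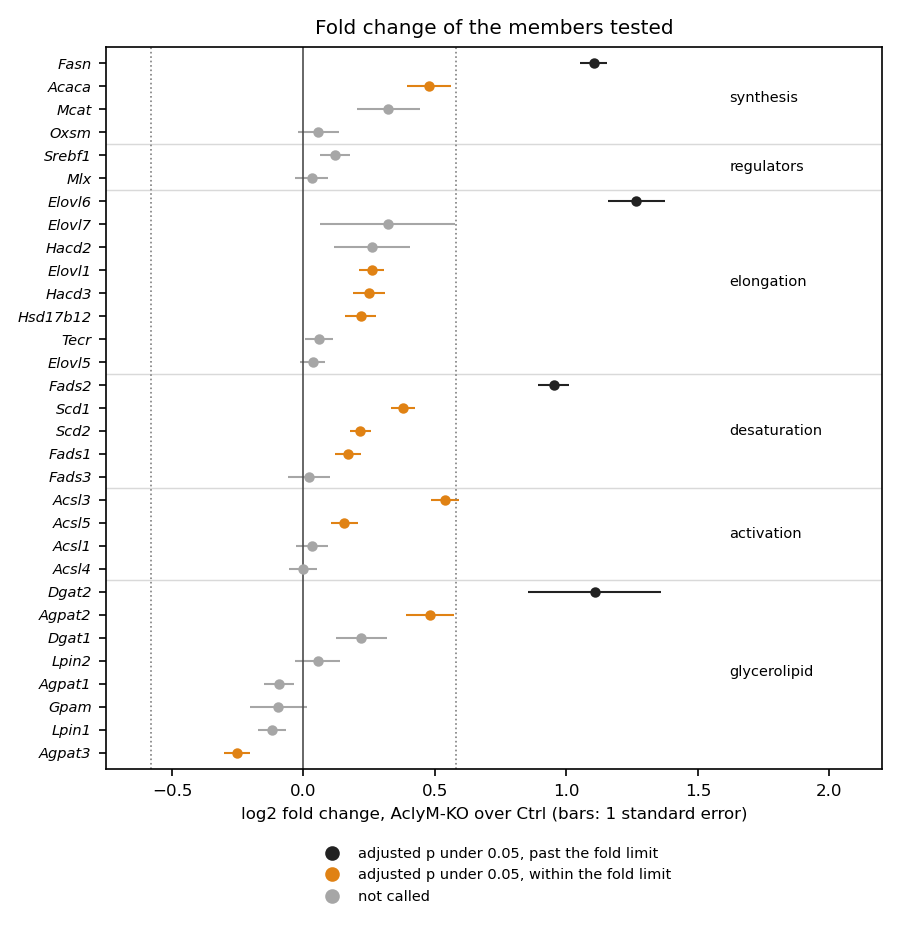
Log2 fold change of AclyM-KO over Ctrl (x axis) for the 31 tested members (y axis), ordered by step. Points are edgeR estimates and bars 1 standard error. Dotted lines mark the fold limit of 0.58 in either direction. *Fasn*, *Elovl6*, *Fads2* and *Dgat2* lie to the right of the limit, and *Agpat3* is the 1 member called lower.

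Of the synthesis genes, *Fasn* and *Acaca* rose, and the level of *Fasn* more than doubled. *Fasn*, which encodes the multifunctional enzyme that makes palmitate, lies on chromosome 11 (GRCm38, chr11:120805958-120825166). Ctrl libraries gave 5475, 5028 and 4893 *Fasn* counts, and AclyM-KO libraries 12384, 12192 and 12387. The AclyM-KO libraries lay between 784 and 849 CPM, far above the Ctrl range of 370 to 411 CPM. Mean levels were 384 ± 23.5 CPM and 826 ± 36.1 CPM (n = 3), a 2.15-fold difference (log2 fold change 1.10, SE 0.05, edgeR adjusted p = 1.59e-09). Per kb of transcript, *Fasn* moved from 38.2 to 82.2 CPM, and in rank from 1854 to 790 among the 11766 genes ordered by that level.

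The promoter of *Fasn* is shown because *Fasn* had the largest rise in CPM among the members past both limits, and because the CCAAT box, the site of NF-Y, is often found beside sterol regulatory elements in lipogenic promoters. The window holds the 250 bases upstream of the transcript start at position 120824547 on the minus strand, which is also the GENCODE start (chr11:120824548-120824797, RefSeq sequence, GRCm38.p6). RefSeq's span for the gene, given above, begins further upstream at 120825166 and so covers the window. The bases are printed 5′ to 3′ with the CCAAT boxes of either strand in capitals.

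Fasn: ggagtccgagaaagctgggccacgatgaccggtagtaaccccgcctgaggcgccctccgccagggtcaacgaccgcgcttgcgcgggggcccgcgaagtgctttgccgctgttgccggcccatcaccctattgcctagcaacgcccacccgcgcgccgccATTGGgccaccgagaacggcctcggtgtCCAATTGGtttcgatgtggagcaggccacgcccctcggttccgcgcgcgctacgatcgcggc

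The 3 boxes of *Fasn* begin 90, 62 and 59 bases before the start at 120824547, and the last 2 overlap in a palindrome. Windows of 250 bases before a RefSeq start were at hand for 28 of the 35 members, and not for *Scd1*, *Scd2*, *Mcat*, *Dgat1*, *Dgat2*, *Fads1* and *Elovl3*. Of the 28, 8 had windows for several starts, and in 10 a GENCODE exon reached into a window, over 129 bases for *Elovl6* and 243 for *Fads2*, so not all letters searched lie outside transcripts. Both strands were searched. A gene with several windows counted once, as a match if any of them matched. The letters CCAAT were found for 17 of the 28 members (60.7%) and for 40.5% of the tested genes with a window. The Sp1 GC box (GGGCGG) was found for 67.9% of these members and 63.4% of the tested genes. The E-box (CACGTG) was found for 17.9% and 10.2%. The sterol regulatory element (TCACNCCAC) was found for *Acsl1* and *Mlxipl*, 7.14% of these members against 1.20% of the tested genes. The 28 members include *Mlxipl*, *Acacb* and *Elovl4*, which were not tested, so their shares and those of the tested genes are not strictly alike. Among tested members the element matched for 0 of 10 called higher and for 1 of 15 not called higher. It matched for 1 of 14 genes of sterol synthesis and uptake. Only this 1 form of the element was searched, so a lack of a match does not show that a promoter lacks the element. A CCAAT box was present for 6 of 10 members called higher with a window and for 9 of 15 tested members that were not called higher. The carbohydrate response element and the LXR element of the DR4 type were searched as their full consensus. They matched for 0 and 4 of 27025 genes with a window, too few to say anything of the members. Of the other members past both limits, *Elovl6* held none of the searched motifs, *Fads2* held only the GC box and *Dgat2* had no window. These matches describe letters, and no binding was measured.

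*Acaca* encodes acetyl-CoA carboxylase 1, which makes the malonyl-CoA used for cytosolic synthesis. Its levels were 41.4, 54.3 and 43.6 CPM in Ctrl and 68.4, 62.9 and 61.9 CPM in AclyM-KO. The groups did not overlap, although Ctrl replicate 2 lay nearer to the AclyM-KO libraries than the other Ctrl libraries did. Mean levels were 46.4 ± 6.91 and 64.4 ± 3.45 CPM (log2 fold change 0.48, edgeR adjusted p = 0.000625), and without Ctrl replicate 2 the log2 fold change was 0.60, past the fold limit. *Acacb*, the mitochondrial carboxylase linked to control of fatty acid oxidation, had 4 to 8 counts in Ctrl and 5 to 10 in AclyM-KO and was not tested. *Mcat* and *Oxsm* belong to the separate synthesis pathway of mitochondria. *Mcat* was at 10.7 ± 1.49 CPM in Ctrl and 13.4 ± 0.836 CPM in AclyM-KO, without overlap, and did not pass the test (log2 fold change 0.32, edgeR adjusted p = 0.0634). *Oxsm* was at 24.1 ± 0.825 and 25.1 ± 1.33 CPM (log2 fold change 0.06). Within the pathway, the ratio of *Fasn* to *Acaca* per transcript length was 7.49 ± 0.627 in Ctrl and 11.5 ± 0.670 in AclyM-KO, without overlap (exact permutation p = 0.1, the smallest possible). The ratio was chosen after the values were seen, so it is a description and no further test.

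None of the 3 regulators passed the test. *Srebf1* was counted 1894, 1473 and 1853 times in Ctrl libraries and 2110, 2168 and 2040 times in AclyM-KO libraries. At 128, 120 and 141 CPM against 144, 139 and 140 CPM, the groups overlapped. Mean levels were 130 ± 10.2 and 141 ± 2.49 CPM (log2 fold change 0.12, SE 0.06, edgeR adjusted p = 0.138), and the value depended on the Ctrl libraries. Without Ctrl replicate 3 the log2 fold change was 0.18 (edgeR adjusted p = 0.0327), and without Ctrl replicate 2 it was 0.07 (edgeR adjusted p = 0.372). *Srebf1* makes the SREBP1a and SREBP1c isoforms from separate starts, and its rows in the table held identical counts, so the isoforms were not resolved. The protein is made as a membrane-bound precursor that has to be cleaved, a step that RNA counts do not show. The ratio of *Fasn* to *Srebf1* per transcript length was 1.13 to 1.46 in Ctrl and 2.41 to 2.60 in AclyM-KO. *Mlxipl*, which encodes the glucose-responsive factor ChREBP, had 0 counts in all 6 libraries. Its partner *Mlx* was at 39.7 ± 0.807 and 40.5 ± 0.845 CPM (log2 fold change 0.03), with 19.3% of its exonic bases under exons of a gene on the other strand.

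**Figure D2:**
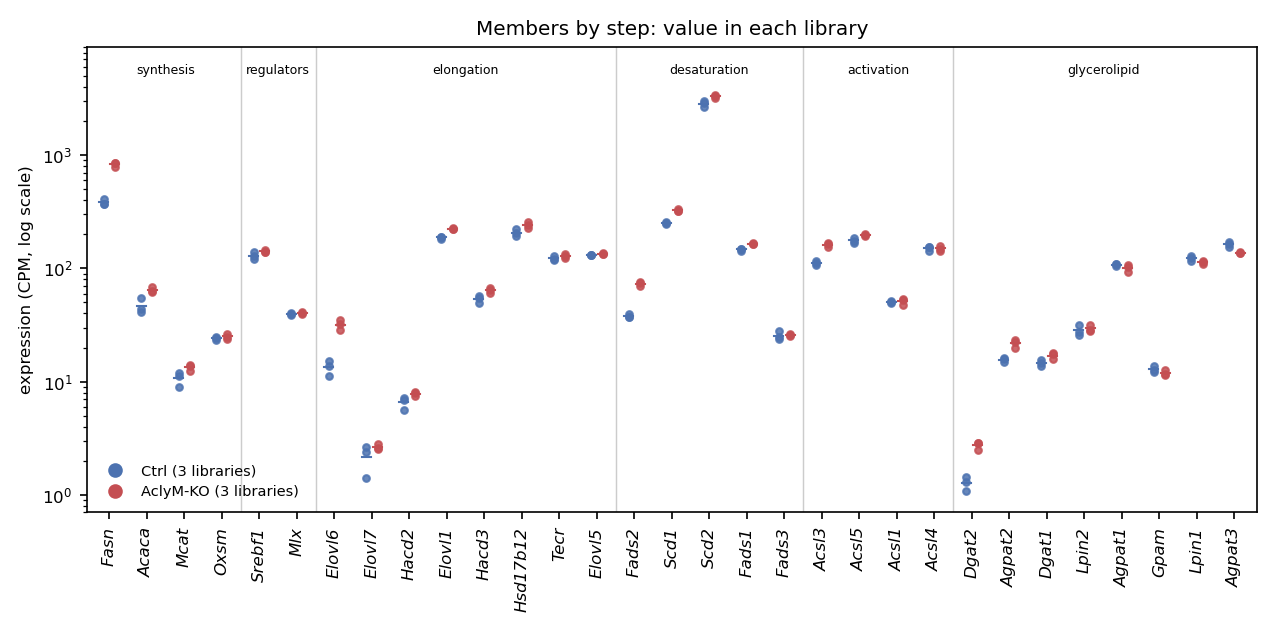
Expression of the 31 tested members by step, in CPM on a log scale (y axis), with 1 point per library and a bar at the mean of each group of 3. For *Fasn*, *Elovl6*, *Fads2* and *Dgat2* the AclyM-KO points stand well clear of the Ctrl points, while those of *Srebf1* and *Mlx* overlap.

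Of the 10 elongation genes, 4 rose, and the size of the change was uneven among the elongases. *Elovl6*, the elongase that turns palmitate into stearate, lies on chromosome 3 (chr3:129532386-129638495). Its counts were 166, 186 and 180 in Ctrl, and 510, 504 and 417 in AclyM-KO. Every AclyM-KO library was above every Ctrl library, at 34.8, 32.4 and 28.6 CPM against 11.2, 15.2 and 13.7 CPM. *Elovl6* had the largest log2 fold change of the tested members at 1.27, with an SE of 0.11 (2.40-fold, edgeR adjusted p = 7.71e-07). It remained a low transcript, at 2.25 and 5.37 CPM per kb, and took 1.12% of the elongases' summed CPM per kb in Ctrl and 2.29% in AclyM-KO.

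*Elovl1*, an elongase of saturated and monounsaturated very long chains, was the most abundant of its family, with 75.1% of the summed CPM per kb in Ctrl. Rows of *Elovl1* with identical counts had lengths of 1248 and 1811 bases. The family's shares use 1248 and would differ with the other length. It rose from 190, 183 and 191 CPM to 223, 227 and 225 CPM (log2 fold change 0.26, edgeR adjusted p = 0.000810). *Elovl5*, an elongase of polyunsaturated chains, was at 132, 131 and 130 CPM in Ctrl and 134, 133 and 136 CPM in AclyM-KO. Although its libraries did not overlap, the log2 fold change was 0.03 and the edgeR adjusted p 0.640. *Elovl6* to *Elovl5*, per transcript length, gave a ratio of 0.0477 ± 0.00734 in Ctrl and 0.111 ± 0.0117 in AclyM-KO. *Elovl7* was counted at 21 to 35 reads per Ctrl library and 37 to 44 per AclyM-KO library, and its SE of 0.26 was close to its log2 fold change of 0.32. *Elovl3* counts were 0, 1 and 0 in Ctrl, and 0, 1 and 7 in AclyM-KO. *Elovl4* had no count in any Ctrl library and 3, 3 and 5 in AclyM-KO, too few to give a fold.

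Of the other enzymes of the elongation cycle, *Hsd17b12* and *Hacd3* rose, both by less than *Elovl6*. *Hsd17b12*, the 3-ketoacyl-CoA reductase, was at 194, 222 and 206 CPM in Ctrl and 255, 242 and 226 CPM in AclyM-KO (log2 fold change 0.22, edgeR adjusted p = 0.0133). Its call was lost without Ctrl replicate 1, AclyM-KO replicate 1 or AclyM-KO replicate 2. *Hacd3*, a 3-hydroxyacyl-CoA dehydratase, rose from 53.8 ± 3.64 to 64.1 ± 2.84 CPM (log2 fold change 0.25, edgeR adjusted p = 0.00797). Its relative *Hacd2* was at 6.57 ± 0.846 and 7.83 ± 0.370 CPM, without overlap and without a call (log2 fold change 0.26, edgeR adjusted p = 0.207). *Tecr*, the reductase of the last step, was at 123 ± 5.01 and 128 ± 5.13 CPM (log2 fold change 0.06). The cycle thus held 1 enzyme with a large change, *Elovl6*, among tested enzymes with log2 fold changes of 0.03 to 0.32.

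All 5 desaturase genes were tested and 4 rose. *Fads2* encodes the delta-6 desaturase that begins the synthesis of polyunsaturated chains, and lies on chromosome 19 beside *Fads1* and *Fads3* (chr19:10062765-10101503). Counts of *Fads2* were 553, 486 and 487 in Ctrl, and 1086, 1094 and 1110 in AclyM-KO. The groups were far apart, at 37.0 to 39.8 CPM and 70.4 to 76.1 CPM. The log2 fold change was 0.95 with an SE of 0.06 (1.93-fold, edgeR adjusted p = 3.30e-08).

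Its neighbours differed from it in size of change. *Fads1*, the delta-5 desaturase (chr19:10182877-10196874), was at 149, 143 and 149 CPM in Ctrl and 169, 163 and 164 CPM in AclyM-KO. It rose by 0.17 on the log2 scale (edgeR adjusted p = 0.0175), and the call was lost without any 1 of the AclyM-KO libraries. *Fads3* (chr19:10040855-10060113) was at 25.5 ± 2.05 and 25.8 ± 0.515 CPM, and its log2 fold change of 0.02 turned negative without Ctrl replicate 1 or 3. *Fads2* took 19.1% to 20.6% of the summed CPM per kb of the 3 genes in Ctrl and 29.2% to 30.8% in AclyM-KO. Over the same libraries the ratio of *Fads2* to *Fads1* per transcript length was 0.285 ± 0.0188 and 0.489 ± 0.0191, without overlap (exact permutation p = 0.1). This ratio was chosen after the values were seen, so it restates the fold changes above and is no further test.

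The stearoyl-CoA desaturases, which place the first double bond in palmitate and stearate, rose moderately from high levels. *Scd2* was the most abundant member, at 520 CPM per kb and rank 105 of 11766 in Ctrl. It was at 2659, 2977 and 2878 CPM in Ctrl and 3388, 3309 and 3192 CPM in AclyM-KO, without overlap (log2 fold change 0.22, SE 0.04, edgeR adjusted p = 0.00111). *Scd1* was at 251, 255 and 245 CPM in Ctrl and 321, 322 and 332 CPM in AclyM-KO (log2 fold change 0.38, SE 0.05, edgeR adjusted p = 2.37e-05). The ratio of *Scd2* to *Scd1* per transcript length was 10.1 ± 0.562 in Ctrl and 8.98 ± 0.429 in AclyM-KO, with Ctrl replicate 1 at 9.40 close to AclyM-KO replicate 1 at 9.34. Both lie near each other on chromosome 19 (*Scd1* at chr19:44394450-44407709, *Scd2* at chr19:44293676-44306864) and are similar in sequence, so reads could be split between them in the authors' counting.

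Of the 4 acyl-CoA synthetases, which attach coenzyme A to free fatty acids before they can be used, *Acsl3* and *Acsl5* rose. *Acsl3*, an isoform found on the endoplasmic reticulum and on forming lipid droplets, was at 106, 116 and 112 CPM in Ctrl and 167, 164 and 155 CPM in AclyM-KO. All AclyM-KO libraries were higher than any Ctrl library (1.45-fold, log2 fold change 0.54, SE 0.05, edgeR adjusted p = 2.98e-06). *Acsl5* was at 177 ± 8.21 and 197 ± 4.37 CPM (log2 fold change 0.16, edgeR adjusted p = 0.0346), and its call was lost in 4 of the 6 fits that left out a library. *Acsl1* was at 50.4 ± 1.33 and 51.5 ± 3.39 CPM and *Acsl4*, which prefers arachidonic acid, at 150 ± 7.54 and 150 ± 7.33 CPM. Exons of genes on the other strand cover 9.91% of the exonic bases of *Acsl1* and 8.31% of those of *Acsl5*. Within the family, *Acsl3* made up 30.6% ± 0.706 of the summed CPM per kb in Ctrl and 37.7% ± 0.166 in AclyM-KO, without overlap. *Acsl5* stood at 34.0% in Ctrl and at 31.4% to 32.7% in AclyM-KO. The 3 rows of *Acsl3* held identical counts with lengths of 2976, 2492 and 3950 bases, and these shares use 2976. Whether *Acsl3* or *Acsl5* has the larger share in either group depends on the length taken.

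**Figure D3:**
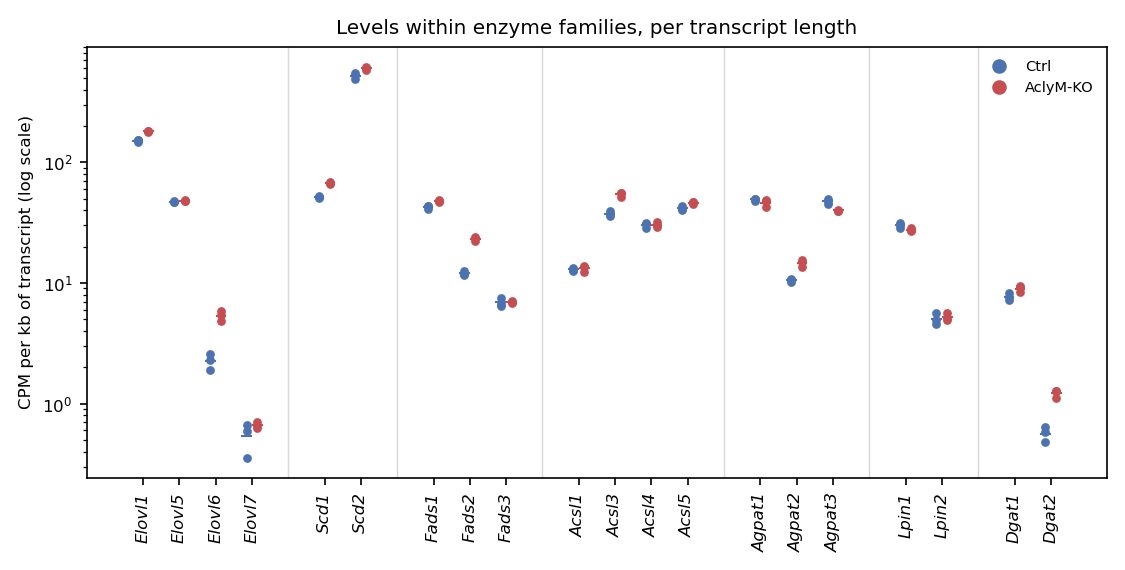
Level per kb of transcript (CPM per kb, log scale, y axis) of the tested members of 7 enzyme families in each of the 6 libraries, with bars at group means. *Elovl6*, *Fads2*, *Acsl3*, *Agpat2* and *Dgat2* differ more between groups than the other tested members of their families. *Elovl6*, *Fads2*, *Agpat2* and *Dgat2* stay below a more abundant relative in every library.

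The 8 glycerolipid genes moved in both directions. *Dgat2*, 1 of 2 enzymes for the last step of triglyceride synthesis, lies on chromosome 7 (chr7:99153663-99182713). Only 16, 16 and 19 *Dgat2* reads were counted in Ctrl, and 42, 39 and 42 in AclyM-KO. These counts were the lowest of the members that passed the test, and the groups did not overlap. The log2 fold change was 1.11 with an SE of 0.25, several times the SE of *Fasn* (2.15-fold, edgeR adjusted p = 0.00481). *Dgat1*, the other enzyme of this step, was at 13.7 to 15.5 CPM and 15.8 to 17.7 CPM, without overlap and without a call (log2 fold change 0.22, edgeR adjusted p = 0.114). *Dgat2* made up 6.82% of the summed CPM per kb of the pair in Ctrl and 10.8% to 13.2% in AclyM-KO, so *Dgat1* remained the more abundant in every library.

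The acyltransferases that make phosphatidic acid diverged. *Agpat2*, with counts of 233, 184 and 212 in Ctrl, and of 327, 311 and 339 in AclyM-KO, rose from 15.6 ± 0.530 to 21.8 ± 1.66 CPM (log2 fold change 0.48, edgeR adjusted p = 0.00123). *Agpat3* was the member that fell, with 164, 155 and 170 CPM in Ctrl and 136, 138 and 137 CPM in AclyM-KO. It fell by 0.25 on the log2 scale with an SE of 0.05 (edgeR adjusted p = 0.00173), and no library of either group reached the other group's range. The ratio of *Agpat2* to *Agpat3* per transcript length was 0.221 ± 0.00264 in Ctrl and 0.368 ± 0.0307 in AclyM-KO. *Agpat1* was at 108 ± 2.27 and 101 ± 7.45 CPM (log2 fold change -0.09, edgeR adjusted p = 0.266).

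*Gpam*, the mitochondrial enzyme of the first acylation, was at 12.8 ± 0.770 and 11.9 ± 0.702 CPM (log2 fold change -0.10). The phosphatidate phosphatases *Lpin1* and *Lpin2* make diacylglycerol. *Lpin1* was at 123 ± 6.03 and 113 ± 3.88 CPM (log2 fold change -0.12, edgeR adjusted p = 0.114), and without Ctrl replicate 3 the adjusted p was 0.0497. *Lpin2* was at 28.4 ± 2.91 and 29.5 ± 2.04 CPM (log2 fold change 0.05). Of this group's 8 genes, 2 were called higher, 1 lower and 5 neither. Log2 fold changes were above 0 for 4 of them and below 0 for 4.

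Summed by step, the levels moved unequally. The synthesis genes summed to 466 ± 29.4 CPM in Ctrl and 929 ± 36.7 CPM in AclyM-KO, a difference of 99.5% that is mostly *Fasn*. Desaturation summed to 3299 ± 164 and 3887 ± 94.6 CPM (17.8%), elongation to 725 ± 14.6 and 835 ± 8.79 CPM (15.2%) and activation to 489 ± 17.1 and 560 ± 20.3 CPM (14.6%). The regulators summed to 169 ± 9.78 and 182 ± 1.70 CPM (7.23%). Glycerolipid genes had the opposite sign, with 467 ± 7.86 and 435 ± 9.77 CPM (-6.89%), where *Agpat3*, *Lpin1* and *Agpat1* carry most of the difference. By median log2 fold change the order was synthesis (0.40), elongation (0.25), desaturation (0.22), activation (0.09), regulators (0.08) and glycerolipid (-0.02). These sums and medians are descriptions of groups of 2 to 8 tested genes.

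Other genes of lipid metabolism were taken from 7 lists with 73 genes in the table, of which 57 were tested, 17 were called higher and 8 lower. Among all 12023 genes, 12.4% were called higher and 12.6% lower, and the counts of each list below are to be read beside these shares. In the list for the supply of acetyl-CoA, NADPH and malonyl-CoA, 5 of 6 genes rose and none fell. *Acss2*, which makes cytosolic acetyl-CoA from acetate without Acly, reached 250, 208 and 227 counts in Ctrl, and 450, 537 and 510 in AclyM-KO. Its libraries did not overlap, at 17.0 ± 0.171 and 33.4 ± 2.35 CPM (log2 fold change 0.97, SE 0.08, edgeR adjusted p = 6.16e-07). *Aacs*, which activates acetoacetate in the cytosol, rose from 90.2 ± 3.29 to 143 ± 3.52 CPM (log2 fold change 0.66, edgeR adjusted p = 2.59e-07). *Me1*, the NADPH-forming malic enzyme, reached 33, 29 and 29 counts in Ctrl, against 63, 56 and 51 in AclyM-KO (log2 fold change 0.74, edgeR adjusted p = 0.0154), and its call was lost without AclyM-KO replicate 1. *Slc25a1*, the mitochondrial citrate carrier, rose by 0.27 and *Mlycd*, which breaks down malonyl-CoA, by 0.32 on the log2 scale. Of the 5 measured genes of mitochondrial fatty acid synthesis, none passed the edgeR test, with log2 fold changes from -0.11 to 0.30.

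Among 12 tested genes of SREBP processing and lipogenic regulation, 4 rose and 1 fell. *Insig1*, which retains the SREBP precursor in the endoplasmic reticulum and is itself an SREBP target, was at 192, 181 and 199 CPM in Ctrl and 340, 348 and 356 CPM in AclyM-KO (log2 fold change 0.87, SE 0.05, edgeR adjusted p = 1.88e-08). *Srebf2*, the gene of the sterol-directed SREBP2, rose from 285 ± 2.15 to 330 ± 5.34 CPM (log2 fold change 0.21, edgeR adjusted p = 0.00271). *Mid1ip1*, an activator of acetyl-CoA carboxylase, rose by 0.33 and *Mbtps1*, which encodes the first protease that cuts SREBPs, by 0.15. Exons of a gene on the other strand cover 25.5% of the exonic bases of *Mid1ip1*. *Rxra*, the partner receptor of LXR, fell by 0.29. *Scap*, the escort of the precursor, was at 41.8 ± 1.47 and 41.0 ± 2.71 CPM (log2 fold change -0.03), and *Insig2* at 40.7 ± 6.03 and 35.3 ± 0.914 CPM (log2 fold change -0.21, edgeR adjusted p = 0.103).

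Of 7 tested genes of other elongation and desaturation steps, *Degs1* and *Cyb5b* rose, by 0.29 and 0.33 on the log2 scale, and of 5 tested acyl-CoA synthetases and binding proteins only *Dbi* did, by 0.17. Of 13 tested acyltransferases, 3 rose and 3 fell. Within the fold limit, *Gpat4* (log2 fold change 0.25) and *Lpcat3* (0.15) rose, and *Lclat1* (-0.20) and *Lpcat1* (-0.18) fell. *Soat2*, which esterifies cholesterol, was at 1.28, 3.19 and 2.88 CPM in Ctrl, against 6.82, 7.66 and 5.82 CPM in AclyM-KO (log2 fold change 1.49, SE 0.25, edgeR adjusted p = 0.000393), while its relative *Soat1* was at 857 ± 29.5 and 835 ± 10.3 CPM. *Lpcat2*, an enzyme of phosphatidylcholine remodelling, was at 24.7, 21.1 and 20.1 CPM in Ctrl and 13.0, 14.0 and 13.5 CPM in AclyM-KO, and fell by 0.71 (edgeR adjusted p = 0.000102).

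Of 9 tested genes of lipid droplets and triglyceride breakdown, 2 rose and 4 fell. *Hilpda*, an inhibitor of the lipase ATGL that is induced by hypoxia, was at 17.8, 27.6 and 23.9 CPM in Ctrl, against 7.16, 9.46 and 6.65 CPM in AclyM-KO. It fell by 1.56 on the log2 scale with an SE of 0.16 (edgeR adjusted p = 4.26e-06). *Pnpla2*, the gene of ATGL, fell by 0.22, *Lipe*, the hormone-sensitive lipase, by 0.46 and the droplet coat gene *Plin3* by 0.32. *Plin2*, the main droplet coat gene of macrophages, rose from 795 ± 25.7 to 960 ± 15.9 CPM (log2 fold change 0.27, edgeR adjusted p = 0.000159), and *Abhd5*, the activator of ATGL, by 0.31. Exons on the other strand cover 15.6% of the exonic bases of *Lipe* and 16% of those of *Abhd5*.

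**Figure D4:**
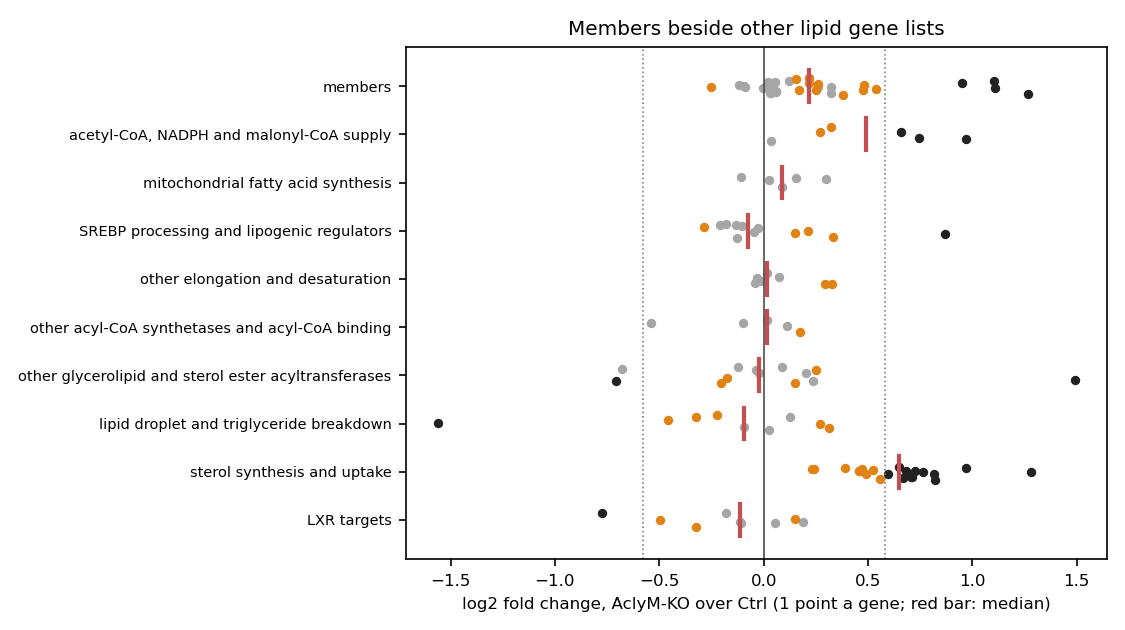
Log2 fold change of AclyM-KO over Ctrl (x axis) for the members and for 9 other lists (y axis), 1 point per tested gene. Black points are called past the fold limit of 0.58 (dotted lines), orange points are called within it and grey points are not called. Red bars are medians, at 0.22 for the members, 0.65 for sterol synthesis and uptake and -0.11 for LXR targets.

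The pathways most like this one by regulation were set beside it. Of 21 genes of sterol synthesis and uptake, all 21 rose and 12 passed the fold limit, with a median log2 fold change of 0.65 (range 0.23 to 1.28) against 0.22 for the members. Of the 31 tested members, 16 were not called. Of 9 tested genes on a short list of LXR targets, which was drawn up without members, 1 rose and 3 fell, and the median was -0.11. These values describe that list and not all targets of LXR. *Apoe* fell by 0.78, *Abca1* by 0.50 and *Abcg1* by 0.32 on the log2 scale, and *Lpcat3*, which is also among the acyltransferases above, rose by 0.15 (edgeR adjusted p = 0.0295). The call of *Lpcat3* was lost with DESeq2 and without any 1 library other than Ctrl replicate 2. The difference between the lists was not tested. All 14 sterol genes with a window held a CCAAT box, against 17 of 28 members.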

How the data were processed

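Total RNA of 6 samples was made into strand-specific libraries. The submitters' processing notes name CASAVA 1.8.2, and the authors used STAR 2.5.2b when they aligned reads to mm10. They deposited raw counts per transcript, which are not normalized. The counting program, and whether it used strand, is not given in the sources used here. The authors tested with DESeq2.

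The 35745 rows were paired with genes through RefSeq (GRCm38.p6, 35440 rows) and GENCODE M21 (188 rows). The 117 rows without a gene held 0.370% to 1.38% of counts and were left out. The row with the highest total was kept for each gene, since 6089 genes had several rows. The main test was edgeR's quasi-likelihood test (version 4.0.16, R 4.3.3) with genotype as the term, after filterByExpr and TMM scaling (Benjamini-Hochberg adjustment over 12023 genes). CPM are TMM-scaled, fold changes are edgeR's, and the SE is the log2 fold change divided by the root of F. The common biological coefficient of variation was 0.0588. The scripts were tested on simulated data. No pair of libraries was alike within sampling noise (chi-square per gene of 2.31 to 7.46).

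All members are described. Those past both limits (adjusted p under 0.05, log2 fold change beyond 0.58) have values in every library, and from other lists the genes past both limits are named. Other called genes of those lists, the ratios within families, and *Scap*, *Insig2* and *Soat1* were named after their values were seen. Members and lists were chosen with earlier results of these data known. Alternatives were DESeq2 1.42.0, limma-voom (limma 3.58.1), other scalings and low-count filters, a test against the fold limit (glmTreat), the mean over a gene's rows, a replicate block and leaving out each library. *Hsd17b8* was not analysed here. Library sizes limit the precision of low genes such as *Dgat2*.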

Additional observations from a re-analysis of the deposited data

How the results depend on the processing

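Of 570 values of single genes under the alternatives, 531 kept their direction and side of the threshold, 28 lost a call, 2 gained one and 9 reversed. The 14 members called higher were the same genes with DESeq2, limma-voom, either other scaling, a filter at 50 counts and the mean over rows. Without a low-count filter *Elovl4* was added, giving 15. A test against the fold limit itself (glmTreat) kept 3, *Fasn*, *Elovl6* and *Fads2*, and *Dgat2* was lost (adjusted p = 0.388, edgeR). That test called 0 members lower, 3 other pathway genes higher and 1 lower, 5 sterol genes higher, and 0 LXR targets higher and 1 lower. By its construction this test makes fewer calls, 77 higher and 41 lower over all genes. Leaving out 1 library gave 11 to 15 members higher, 1 to 2 lower and 4 to 5 past the fold limit, 12 to 16 other pathway genes higher and 5 to 8 lower, 20 to 21 sterol genes higher, 0 to 2 LXR targets higher and 3 to 4 lower, and -1.31 to -1.24 for *Acly*. The 1 LXR target called higher was lost (0) with DESeq2, without a low-count filter and with the replicate block. It was also lost in every fit that left out a library, except without Ctrl replicate 2, where 2 LXR targets were called higher. DESeq2 called 12 other pathway genes higher and 6 lower, against 17 and 8, and among the genes lost was *Me1* (adjusted p = 0.0655). Calls over all genes also fell with DESeq2, to 1120 higher and 1146 lower, against 1485 and 1511. The fits that left out 1 library called 1002 to 1512 genes higher and 972 to 1548 lower. The cause of these changes was not tested.

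Reversals were all near 0: leaving out 1 library gave log2 fold changes of -0.0259 to 0.0821 for *Fads3* (below 0 without Ctrl replicate 1 or 3), -0.00133 to 0.0849 for *Acsl1* (below 0 without AclyM-KO replicate 2), -0.0462 to 0.0316 for *Acsl4* (above 0 without Ctrl replicate 2, Ctrl replicate 3 or AclyM-KO replicate 3) and -0.0124 to 0.138 for *Lpin2* (below 0 without Ctrl replicate 2 or AclyM-KO replicate 3). Upper-quartile scaling gave 0.00246 for *Acsl4*.

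The libraries share replicate numbers, but same-numbered libraries did not deviate together (r = -0.07, 0.05 and -0.03). Differently numbered libraries gave r of -0.08 to 0.11. Whether libraries were handled in numbered pairs cannot be told from these correlations. With a replicate block 13 members were higher and 1 lower, and 1315 genes were higher and 1329 lower against 1485 and 1511 without it. *Acsl5* was lost (adjusted p = 0.0712, edgeR).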
